A study of Mus musculus with 18 samples.

Results

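A set of 10 genes of canonical Wnt/beta-catenin signalling at vascular barriers was followed: the receptor components Fzd4, Lrp5, Tspan12 and Reck, the transcription factor Lef1, and the target and feedback genes Axin2, Nkd1, Apcdd1, Notum and Tnfrsf19. They were chosen by gene symbol and are 10 of the 14068 genes listed in at least 1 of the 3 deposited tables. The choroid and brain tables list all 10, and the retina table lists 9, without Notum. RNA came from mice that carried Tie2-cre and the NuTRAP allele, and these transgenes are shared by every library. The 18 libraries form 6 groups of 3: choroid positive, choroid input, retina positive, retina input, brain positive and brain input. The NuTRAP allele puts a GFP-tagged ribosomal protein into cells with Cre, the positive fraction is the RNA pulled down with an antibody to GFP, and the input is 150 µl of the supernatant of the same lysate after a spin at 12000 g. Tie2-cre is active in endothelium and in the blood lineage, so it does not mark endothelium alone. Each choroid sample held scraped pigment epithelium and choroid of 2 eyes, each retina sample 2 pooled retinae and each brain sample 0.5 of a brain. The labels give cycloheximide, at the same concentration, for every library. They state neither sex nor age. Libraries from mice lacking the transgenes were not analysed here. The column names in the tables also carry the word WT, which the sample labels do not use.

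In this pathway a Wnt ligand or norrin binds a Frizzled receptor with an LRP co-receptor, which keeps beta-catenin from being degraded, and beta-catenin then acts with LEF/TCF factors on target genes. Several of those targets, Axin2, Nkd1, Apcdd1 and Notum among them, encode inhibitors of the same pathway. In the blood-brain and blood-retina barriers, endothelial Wnt signalling is known to be needed for barrier properties. The vessels of the choroid are fenestrated and form no such barrier.

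Total counts over listed genes per library were 2649095 to 4587921 in choroid positive and 8807306 to 14484068 in choroid input, 6260958 to 11071373 in retina positive and 15243098 to 21521130 in retina input, and 18618427 to 28277853 in brain positive and 9596740 to 32064355 in brain input. All 20 pan-endothelial markers were called higher in the positive fraction than in the input of each tissue, with a median log2 fold change of 3.43 in choroid, 6.08 in retina and 5.40 in brain. Markers of microglia and macrophages were higher in the positive fraction as well (8 of 10 listed in choroid, 9 of 9 in retina and 11 of 11 in brain). Their summed level was 16596 to 24041 CPM in choroid positive, 217 to 950.3 CPM in retina positive and 5107 to 6600.2 CPM in brain positive, with the lowest retina value in 421. Brain input 960 stood apart from the other brain inputs (r = 0.908 and 0.91, against 0.994 between those). In choroid 421 the 6 listed markers of the oligodendrocyte lineage summed to 1652 CPM in the positive fraction and 5659.7 CPM in the input, against 139 and 229 CPM in the other positive fractions and 392 and 512 CPM in the other inputs. Values without these libraries are given where a call or a direction changes.

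RefSeq promoter windows (GRCm38.p6, 250 bases before to 50 after a gene's start) were found for 7 members, in 11 windows, and not for Apcdd1, Notum and Lrp5. The windows were searched on both strands for CTTTG, the core of the motif that LEF/TCF factors recognise, and for the longer CTTTGAT or CTTTGAA, which contain that core. The core was in 7 of the 11 windows, of 4 members (Lef1, Reck, Tspan12 and Tnfrsf19), and in 53.9% of all 32851 windows. Several of these windows are of Lef1, and those starting at chr3:131110047 and chr3:131110073 overlap and hold the same cores. The windows are therefore not all distinct sequences. The longer form was in 1 of the 11, a window of Tnfrsf19 with CTTTGAT on the opposite strand, and in 8.65% of all windows. Below are the windows of the factor Lef1, of the feedback gene Axin2, of the receptor component Reck and of Tnfrsf19, as the member with the longer motif. Tnfrsf19 has 2 windows: the printed one lies inside the gene as the table gives it and was chosen because it holds the motif, while the one at the table's gene start (chr14:61046806-61047105) has 0 cores. Each is printed 5′ to 3′ on the gene's strand, with the core in capitals on either strand. A match is a description of letters and says nothing of binding.
Lef1 (chr3:131110047-131110346, + strand): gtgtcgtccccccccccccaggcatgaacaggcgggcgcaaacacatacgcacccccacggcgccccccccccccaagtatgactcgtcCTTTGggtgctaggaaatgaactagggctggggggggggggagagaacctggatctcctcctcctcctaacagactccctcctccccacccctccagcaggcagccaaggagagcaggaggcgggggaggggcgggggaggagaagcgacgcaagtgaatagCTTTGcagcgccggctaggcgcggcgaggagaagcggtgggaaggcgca
Axin2 (chr11:108920099-108920398, + strand): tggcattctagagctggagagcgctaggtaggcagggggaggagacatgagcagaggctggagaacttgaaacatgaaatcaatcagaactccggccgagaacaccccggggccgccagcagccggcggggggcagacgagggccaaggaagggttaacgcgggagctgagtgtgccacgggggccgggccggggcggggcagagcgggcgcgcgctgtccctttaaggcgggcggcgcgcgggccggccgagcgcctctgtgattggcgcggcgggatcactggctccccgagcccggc
Reck (chr4:43875280-43875579, + strand): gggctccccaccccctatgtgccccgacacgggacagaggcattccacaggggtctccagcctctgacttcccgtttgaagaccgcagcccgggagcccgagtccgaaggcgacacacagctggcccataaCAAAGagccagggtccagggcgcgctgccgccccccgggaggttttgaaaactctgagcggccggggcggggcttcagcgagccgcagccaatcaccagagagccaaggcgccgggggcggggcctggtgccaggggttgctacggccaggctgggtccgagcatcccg
Tnfrsf19 (chr14:61037938-61038237, - strand): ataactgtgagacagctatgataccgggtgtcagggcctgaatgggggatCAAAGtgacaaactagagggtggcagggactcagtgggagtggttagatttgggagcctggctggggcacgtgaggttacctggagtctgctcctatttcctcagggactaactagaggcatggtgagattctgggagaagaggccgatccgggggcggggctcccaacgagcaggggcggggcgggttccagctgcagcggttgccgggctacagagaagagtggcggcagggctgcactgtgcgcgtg

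The members lie on 9 chromosomes in the mm10 coordinates of the tables: Fzd4 at chr7:89404366-89410110 (plus strand), Lrp5 at chr19:3584825-3686564 (minus), Tspan12 at chr6:21771395-21852515 (minus), Reck at chr4:43875530-43944806 (plus), Lef1 at chr3:131110297-131224357 (plus), Axin2 at chr11:108920349-108950781 (plus), Nkd1 at chr8:88521344-88594887 (plus), Apcdd1 at chr18:62922327-62953195 (plus), Notum at chr11:120653789-120660837 (minus) and Tnfrsf19 at chr14:60963834-61046855 (minus).

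In choroid 6 members were called: Lef1, Tspan12 and Lrp5 were higher in the positive fraction than in the input, Fzd4, Axin2 and Tnfrsf19 were lower, and Apcdd1, Notum, Reck and Nkd1 were not called. In retina 8 of the 9 listed members were higher, and Axin2 was not called. In brain all 10 were higher. A call is an adjusted p under 0.05 (edgeR's quasi-likelihood test with Benjamini-Hochberg adjustment over all genes of the table). That test did not pair the fractions by replicate number. With the number as a block, Apcdd1 and Notum were called lower in choroid as well (adjusted p = 0.0225 and 0.0207). Of all genes tested, 42% were called in choroid (21.1% higher and 20.9% lower), 31.7% in retina (18% higher and 13.7% lower) and 39.5% in brain (21.2% higher and 18.3% lower). The median log2 fold change of the members was -0.46 in choroid, 2.08 in retina and 3.35 in brain, beside -0.03, -0.01 and -0.07 over all genes of those tables. These medians lie below those of the pan-endothelial list in each tissue.

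A table lists a gene where all 3 libraries of at least 1 fraction have a raw value of at least 50. In choroid 5 members were listed through the input alone (Fzd4, Apcdd1, Nkd1, Notum and Tnfrsf19) and Lef1 through the positive fraction alone. In retina Lef1 and Tnfrsf19 were listed through the positive fraction alone, and in brain so were Fzd4, Apcdd1 and Notum. A gene listed through 1 fraction was the likelier to be higher there by that rule, so these counts describe the listed members and support nothing further. In bulk RNA, fewer cells of a type and less RNA per cell cannot be told apart. Values below are CPM, the count relative to a library total scaled within each tissue, in the order of replicates 421, 953 and 960.

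**Figure D1:**
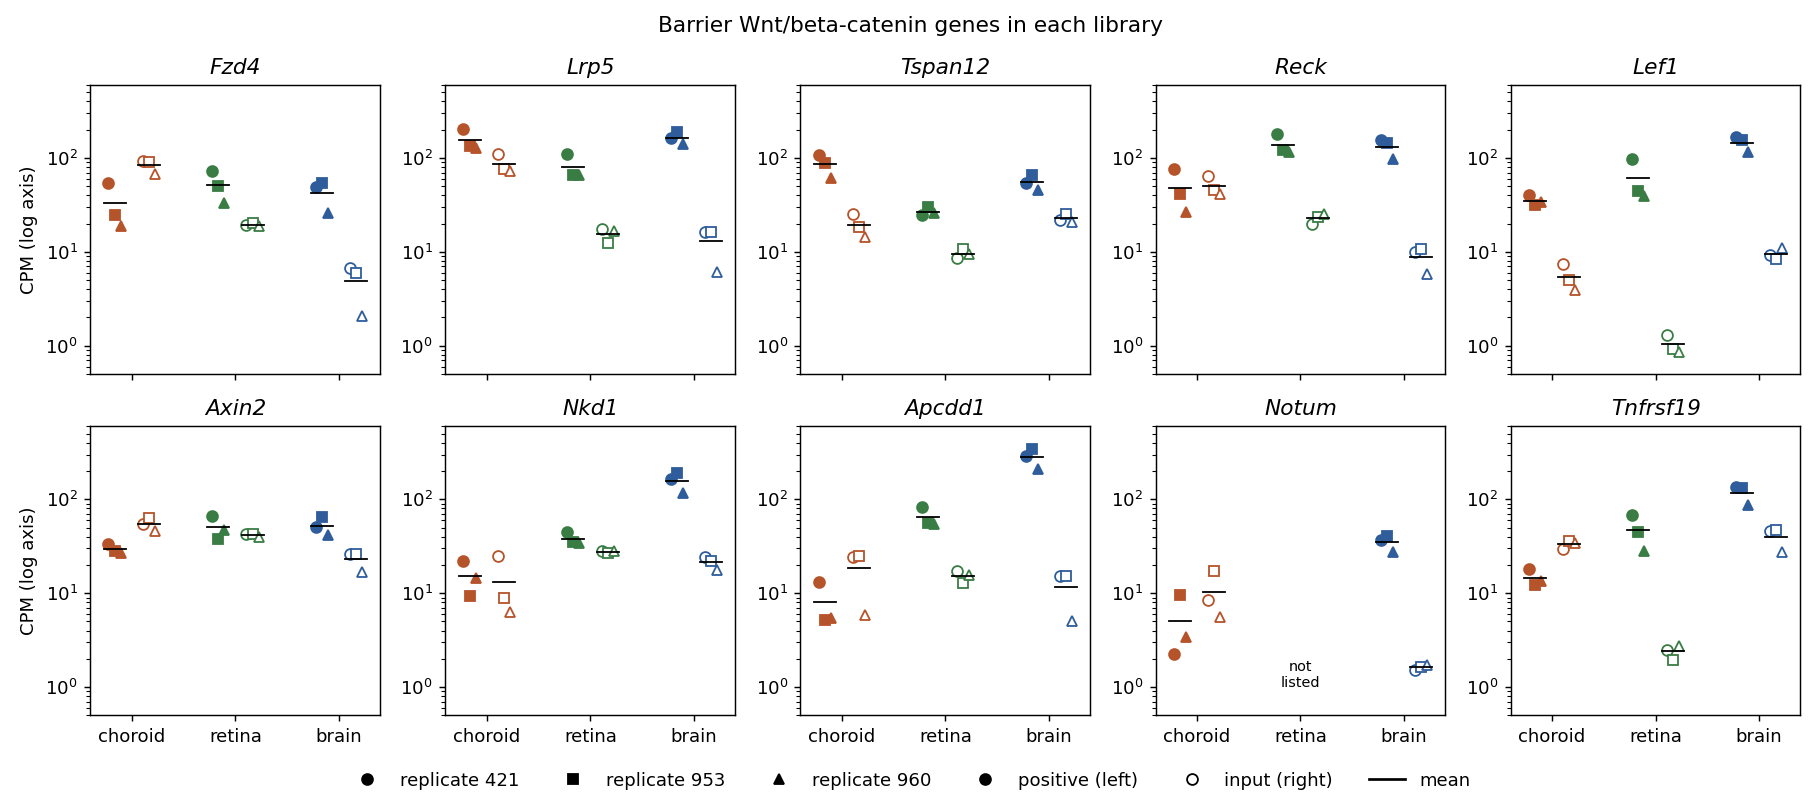
CPM of each member in every library (log axis), with the positive fraction left of the input in each tissue, symbols for the replicates and black lines for group means. All brain positive libraries lie above all brain inputs for each of the 10 genes, while the choroid positive libraries lie below the inputs for Fzd4, Axin2 and Tnfrsf19. Of these, Fzd4, Apcdd1 and Notum were listed in brain through the positive fraction alone, and Fzd4 and Tnfrsf19 in choroid through the input alone. The share of all genes without overlap is not given here, so this is a description.

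Fzd4, the Frizzled receptor for norrin and a receptor of barrier endothelium, was lower in the positive fraction of choroid and higher in that of retina and brain. It had 54.7, 25.0 and 18.6 CPM in choroid positive and 93.6, 91.3 and 68.1 CPM in choroid input. In retina it had 72.0, 49.8 and 32.8 CPM in the positive fraction and 19.1, 20.1 and 18.7 CPM in the input. In brain it had 48.7, 53.6 and 26.1 CPM in the positive fraction and 6.80, 5.92 and 2.06 CPM in the input. The fractions did not overlap in any of the 3 tissues, but the positive one was the lower in choroid. The log2 fold changes were -1.34 ± 0.37 in choroid (SE, adjusted p = 0.0187), 1.41 ± 0.25 in retina (0.0037) and 3.06 ± 0.46 in brain (0.00254). In choroid the adjusted p was 0.0736 without positive 953, 0.0515 without positive 960 and 0.0563 without input 953, and the value was -1.86 without both fractions of 421.

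Lrp5, the co-receptor that acts with Frizzled receptors, was called higher in the positive fraction of all 3 tissues. It had 202, 135 and 129 CPM in choroid positive and 110.0, 76.6 and 72.1 CPM in choroid input. It had 109.7, 65.6 and 65.2 CPM in retina positive and 17.5, 12.5 and 16.5 CPM in retina input. It had 163, 190.1 and 141 CPM in brain positive and 16.3, 16.3 and 6.18 CPM in brain input. No fractions overlapped. The difference was smallest in choroid, at 0.85 ± 0.24 on the log2 scale (SE, adjusted p = 0.0213), beside 2.37 ± 0.23 in retina (0.000116) and 3.65 ± 0.38 in brain (0.000513). In choroid its call was lost without positive 421 (adjusted p = 0.0559), input 953 (0.0869) or input 960 (0.0647), and with library size as the only scaling (0.0815).

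Tspan12, a tetraspanin that assists norrin signalling through Fzd4, did not follow its receptor in choroid. It had 108, 89.2 and 61.9 CPM in choroid positive and 25.3, 18.5 and 14.5 CPM in choroid input. In retina it had 24.6, 29.8 and 25.7 CPM in the positive fraction and 8.53, 10.8 and 9.48 CPM in the input. In brain it had 54.1, 66.0 and 45.2 CPM in the positive fraction and 22.1, 25.6 and 20.9 CPM in the input. The positive fraction was above the input without overlap in each tissue. The log2 fold change was 2.16 ± 0.28 in choroid (SE, adjusted p = 0.000648), 1.47 ± 0.16 in retina (0.000228) and 1.27 ± 0.19 in brain (0.0022).

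Reck, a membrane-anchored protein that with Gpr124 makes Wnt7 ligands act on brain endothelium, had 76.5, 41.7 and 26.3 CPM in choroid positive and 64.3, 45.1 and 41.1 CPM in choroid input. These fractions overlapped, and the log2 fold change was -0.05 ± 0.36 (SE, adjusted p = 0.931; 95% interval -0.87 to 0.78). Reck had 180.3, 120.3 and 116 CPM in retina positive and 19.8, 23.4 and 25.5 CPM in retina input. It had 154, 145 and 96.4 CPM in brain positive and 10.1, 10.7 and 5.85 CPM in brain input. In both of these tissues the fractions were well apart, with log2 fold changes of 2.60 ± 0.19 in retina (adjusted p = 2.08e-05) and 3.87 ± 0.31 in brain (0.000138).

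Lef1, the DNA-binding partner of beta-catenin and itself a target of the pathway, was higher in the positive fraction of every tissue. It had 39.9, 31.8 and 33.9 CPM in choroid positive and 7.42, 5.01 and 3.88 CPM in choroid input. It had 98.3, 44.9 and 39.6 CPM in retina positive and 1.31, 0.934 and 0.857 CPM in retina input, where no raw value was above 20. It had 166, 157 and 115 CPM in brain positive and 9.17, 8.42 and 11.1 CPM in brain input. The fractions were far apart in each tissue, by 6.47-fold in choroid, 59.0-fold in retina and 15.4-fold in brain. On the log2 scale these are 2.69 ± 0.29 (SE, adjusted p = 0.000294), 5.88 ± 0.43 (1.85e-05) and 3.94 ± 0.22 (4.50e-05). The retina value is the highest of any member in any tissue. Lef1 was listed in retina through the positive fraction alone, so its place in this order is a description. In retina positive 421, where Lef1 was highest, the pan-endothelial sum was also the highest (4933 CPM, against 3449 and 2679 CPM in 953 and 960). So were the sums of the mural markers, of which 4 of 10 were listed (1151, against 679 and 823 CPM), and of the fibroblast markers, of which 3 of 9 were listed (244, against 125 and 65.0 CPM). Photoreceptor markers were lowest there, at 23396 CPM, against 31049 and 37409.6 CPM. They summed to 38713 to 40437 CPM in retina input. The part of these in the spread was not tested.

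Axin2, a scaffold of the complex that degrades beta-catenin and a widely used readout of the pathway, had the weakest enrichment of the members in retina and brain. The next lowest members, Nkd1 in retina (0.45 ± 0.13) and Tspan12 in brain (1.27 ± 0.19), lay within the SE of Axin2. Axin2 had 33.4, 28.4 and 27.1 CPM in choroid positive and 54.1, 63.7 and 46.2 CPM in choroid input. In retina it had 67.2, 37.7 and 47.7 CPM in the positive fraction and 42.5, 42.7 and 39.6 CPM in the input, and these overlapped. In brain it had 50.2, 64.8 and 41.6 CPM in the positive fraction and 26.0, 26.3 and 16.8 CPM in the input. The positive fraction was lower in choroid, with a log2 fold change of -0.88 ± 0.20 (SE, adjusted p = 0.00883). It was not called in retina (0.29 ± 0.19, adjusted p = 0.271, 95% interval -0.14 to 0.72), and it was higher in brain (1.17 ± 0.24, adjusted p = 0.00937).

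Nkd1, which binds Dishevelled and dampens the pathway, had 22.2, 9.26 and 14.4 CPM in choroid positive and 24.7, 8.98 and 6.31 CPM in choroid input. The fractions overlapped, both were highest in choroid 421, and the log2 fold change was 0.21 ± 0.54 (SE, adjusted p = 0.772; 0.61 and 0.256 without both fractions of 421). Nkd1 had 44.5, 35.5 and 34.5 CPM in retina positive and 27.9, 27.1 and 28.4 CPM in retina input. It had 166, 191 and 116 CPM in brain positive and 24.5, 21.9 and 17.6 CPM in brain input. Neither of these overlapped. The difference was 0.45 ± 0.13 in retina (adjusted p = 0.0298) and 2.88 ± 0.24 in brain (0.000178). The retina call was lost without positive 953 (0.054), without any 1 of the inputs (0.0973 to 0.118) and in the fit of all 18 libraries (0.475).

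Apcdd1, a membrane glycoprotein that inhibits Wnt signalling at the cell surface, had the largest brain enrichment of the 10 members with all libraries. Notum lay within its SE (4.44 ± 0.23) and came first when libraries were left out. Without brain input 960 Apcdd1 had 4.23 and Notum 4.47, and without both fractions of brain 960 they had 4.39 and 4.62. Apcdd1 was listed in brain through the positive fraction alone, so its place in this order is a description. It had 13.2, 5.25 and 5.51 CPM in choroid positive and 24.5, 25.2 and 5.85 CPM in choroid input, with raw values of 13 to 58.5 in those positive libraries. It had 83.0, 56.1 and 55.0 CPM in retina positive and 17.2, 13.0 and 15.6 CPM in retina input. It had 291, 346 and 212 CPM in brain positive and 15.1, 15.1 and 5.09 CPM in brain input. The choroid fractions overlapped and the others did not. The log2 fold change was 2.08 ± 0.19 in retina (SE, adjusted p = 7.83e-05) and 4.56 ± 0.46 in brain (0.000414), a 23.6-fold difference. In choroid it was -1.17 ± 0.59 (adjusted p = 0.142), and it was called with the replicate block (-1.14, adjusted p = 0.0225) and without input 960 (-1.60, 0.0193).

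Notum, a secreted enzyme that inactivates Wnt ligands, had 2.27, 9.57 and 3.39 CPM in choroid positive and 8.47, 17.2 and 5.52 CPM in choroid input. The fractions overlapped at raw values of 8.0 to 31.0 in the positive libraries, and the log2 fold change was -1.03 ± 0.61 (SE, adjusted p = 0.198; -1.14 and 0.0207 with the replicate block). In brain Notum had 37.1, 41.2 and 27.4 CPM in the positive fraction and 1.53, 1.64 and 1.73 CPM in the input. There the groups were far apart, with a log2 fold change of 4.44 ± 0.23 (adjusted p = 4.12e-05), or 21.7-fold.

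Tnfrsf19, a membrane receptor of the tumour necrosis factor family that is a known target of beta-catenin, had 18.2, 12.3 and 13.6 CPM in choroid positive and 29.4, 35.6 and 34.5 CPM in choroid input. It had 68.0, 45.2 and 28.0 CPM in retina positive and 2.49, 1.96 and 2.73 CPM in retina input. It had 135, 132 and 86.5 CPM in brain positive and 45.4, 47.6 and 27.2 CPM in brain input. The fractions did not overlap in any tissue, and the positive one was the lower in choroid. The log2 fold changes were -1.16 ± 0.23 in choroid (SE, adjusted p = 0.0043), 4.29 ± 0.34 in retina (3.10e-05) and 1.55 ± 0.28 in brain (0.00503).

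**Figure D2:**
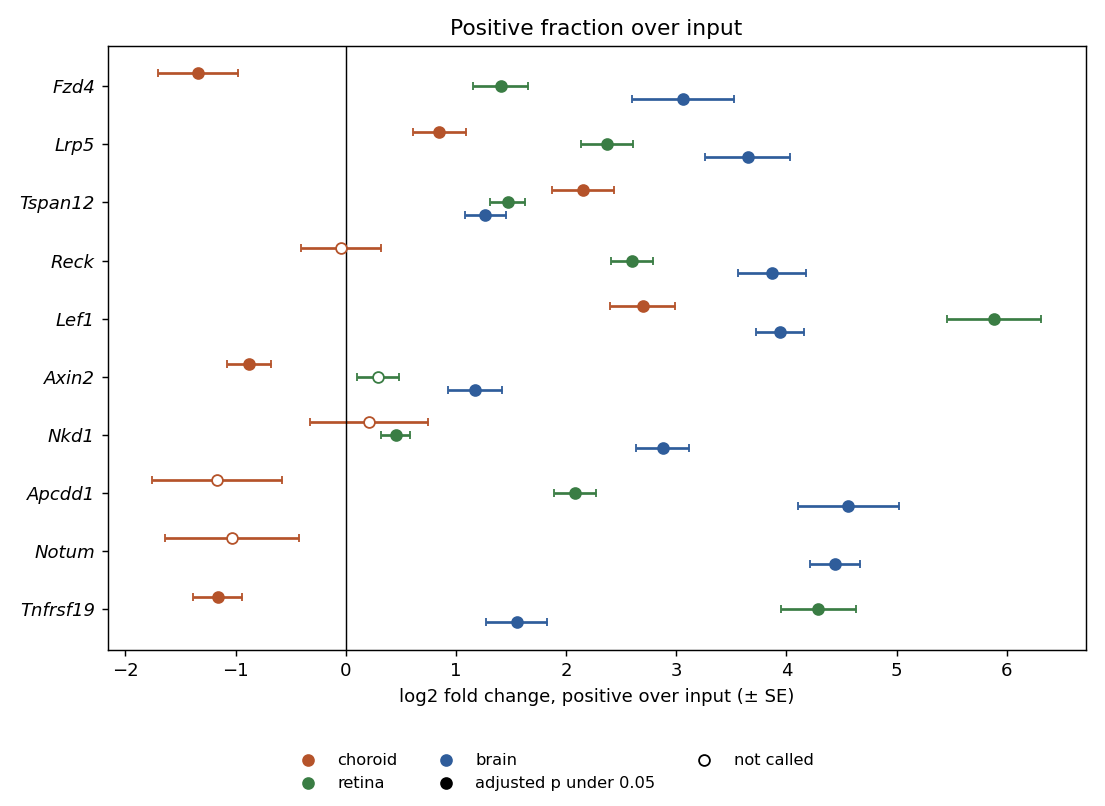
Log2 fold change of the positive fraction over the input (x axis, with SE bars) for each member (y axis) in choroid, retina and brain, with filled points for an adjusted p under 0.05. Lef1 reached 5.88 in retina and Apcdd1 4.56 in brain, while Fzd4, Axin2 and Tnfrsf19 lay below 0 in choroid.

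Without brain input 960 all 10 brain calls were kept, with log2 fold changes of 0.99 to 4.47. Without both fractions of brain 960 the values ran from 1.13 to 4.62. More genes of all kinds were called then too. Without brain input 960, 4670 genes were higher and 4642 lower, against 2744 and 2359 of 12919 with it. Without both fractions of brain 960 the counts were 4758 and 4860. Without both fractions of choroid 421 the choroid count was again 3 higher and 3 lower. With the replicate number as a block the choroid count was 3 higher and 5 lower, and the counts in retina and brain stayed at 8 and 10. Over all genes in choroid, the alternatives other than leaving out 1 library called 1756 to 3223 higher and 2219 to 3412 lower. These p-values measure the spread between 3 libraries a group.

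How enrichment differed between tissues was tested as the difference of log2 fold changes in a fit of all 18 libraries over the 10505 genes of all 3 tables, which hold 9 of the members. Enrichment was lower in choroid than in brain for Fzd4, Apcdd1, Axin2, Tnfrsf19, Lrp5, Reck and Nkd1 and higher for Tspan12 (1 higher and 7 lower of 9, with 24.6% of all genes called, 12.2% higher and 12.3% lower). Set against retina, it was lower in choroid for 7 of 9 members and higher for none (0), with 28.8% of all genes called (10.9% higher and 18% lower). Between retina and brain, Lef1 and Tnfrsf19 were more enriched in retina and Apcdd1 and Nkd1 less (2 higher and 2 lower of 9, with 13.3% of all genes called, 8.33% higher and 4.97% lower). The pan-endothelial list moved too, and its median difference was -1.73 for choroid minus brain, -2.50 for choroid minus retina and 0.86 for retina minus brain. Its part in the members' differences was not tested. The medians of the members were -2.53, -2.61 and -1.12 for these comparisons, beside 0.08, -0.07 and 0.20 over all genes.

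Apcdd1, Fzd4 and Notum were listed in choroid through the input alone and in brain through the positive fraction alone, so the listing rule favours a negative difference for them, and their values and place in the order are a description. Apcdd1 had -5.51 ± 0.70 on the log2 scale (SE, adjusted p = 3.02e-05). Fzd4 (-4.20 ± 0.58, adjusted p = 6.45e-05) and Reck (-3.73 ± 0.46, adjusted p = 2.28e-05) had the next lowest values in this fit. Lrp5 differed by -2.62 ± 0.44, Tnfrsf19 by -2.53 ± 0.41, Nkd1 by -2.48 ± 0.55 and Axin2 by -1.87 ± 0.32 (adjusted p of 0.000283 to 0.00329). Of these, Tnfrsf19 and Nkd1 were listed in choroid through the input alone and in brain through both fractions. The rule favours a negative difference for them too, and their values are a description. Notum, which the retina table does not list, was tested over the choroid and brain libraries only, a fit added after the data were seen, and differed by -5.28 ± 0.70 (adjusted p = 0.000312 over 11121 genes). Tspan12 was more enriched in choroid, by 1.06 ± 0.31 (adjusted p = 0.0186). Its call was lost without choroid positive 421 (0.11), choroid positive 953 (0.0809), choroid input 960 (0.106) or brain positive 960 (0.0518), and with library size as the only scaling (0.74, 0.112). Lef1 differed by -1.08 ± 0.43 and was not called (adjusted p = 0.0783), but it was called with the replicate block (-1.05, 0.0233) and without choroid positive 421 (-1.35, 0.0479), choroid input 960 (-1.45, 0.0293) or brain input 960 (-1.37, 0.0332), with DESeq2 (-1.12, 0.0481), with library size as the only scaling (-1.42, 0.0219) and in the fit of choroid and brain only (-1.05, 0.0429).

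Tnfrsf19 differed between choroid and retina by -5.42 ± 0.45 (adjusted p = 5.02e-07). It was listed in choroid through the input alone and in retina through the positive fraction alone, so the listing rule favours this direction and the value is a description. Apcdd1 (-3.19 ± 0.69), Lef1 (-3.16 ± 0.48), Fzd4 (-2.72 ± 0.56) and Reck (-2.61 ± 0.45) were lower by similar amounts, with adjusted p-values of 0.000167 to 0.00258. Apcdd1, Fzd4 and Nkd1 were listed in choroid through the input alone and in retina through both fractions. The rule therefore favours a negative difference for them as well, and their values are a description. Lrp5 was lower by less, with -1.49 ± 0.43 (0.0164, and 0.0519 without retina positive 421), and so was Axin2, with -1.14 ± 0.32 (0.0129). Nkd1 was not called (-0.21 ± 0.55, adjusted p = 0.808, 95% interval -1.36 to 0.94), and its sign turned without both fractions of choroid 421 (0.23, 0.668) and without choroid input 421 (0.66, 0.232). Tspan12 was not called either (0.71 ± 0.31, adjusted p = 0.102), and it was called higher in choroid with the replicate block (0.70, 0.0216), without choroid positive 960 (0.93, 0.032) and without choroid input 421 (1.00, 0.0249).

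Both barrier tissues differed in which members stood out. Tnfrsf19 (2.89 ± 0.42, adjusted p = 0.000322) and Lef1 (2.08 ± 0.46, adjusted p = 0.0077) were more enriched in retina than in brain. Apcdd1 (-2.32 ± 0.63, adjusted p = 0.0227) and Nkd1 (-2.27 ± 0.52, adjusted p = 0.00892) were less enriched. Lef1 and Tnfrsf19 were listed in retina, and Apcdd1 and Fzd4 in brain, through the positive fraction alone. The listing rule favours a positive difference for Lef1 and Tnfrsf19 and a negative one for Apcdd1 and Fzd4. The values of these members are a description. The Apcdd1 call was lost without retina positive 953 (0.0602), retina input 421 (0.0545), brain positive 421 (0.0511) or brain positive 953 (0.0635). The replicate block raised the count to 2 higher and 5 lower by adding Fzd4 (-1.67, adjusted p = 0.0123), Lrp5 (-1.26, 0.0175) and Reck (-1.18, 0.0213). Without the block these had -1.48 ± 0.56 (0.088), -1.12 ± 0.43 (0.096) and -1.12 ± 0.45 (0.106). Axin2 (-0.73 ± 0.31, adjusted p = 0.124) and Tspan12 (0.35 ± 0.31, adjusted p = 0.479) were not called in either fit, though Axin2 was called without retina positive 421 (-0.98, 0.0452). Lrp5 was also called without brain input 960 (-1.05, 0.0408), and Fzd4 without both fractions of brain 960 (-1.44, 0.0437) and with DESeq2 (-1.54, 0.0418). The share of all genes called with the block is not given here, so the member count with the block is a description. Over all genes, the alternatives other than leaving out 1 library called 631 to 1501 higher and 516 to 818 lower (875 and 522 in the main fit).

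**Figure D3:**
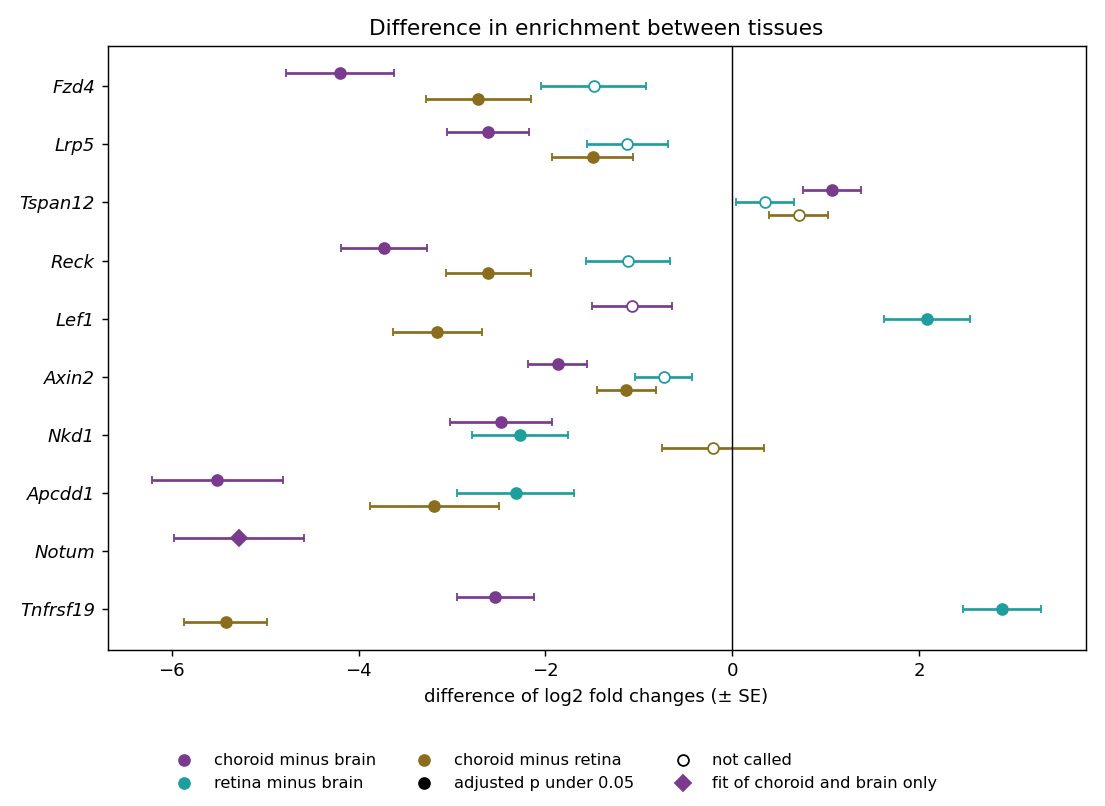
Difference in log2 enrichment between tissues (x axis, with SE bars) for each member, with filled points for an adjusted p under 0.05 and a diamond for Notum from the fit of choroid and brain only. Choroid minus brain ran from -5.51 for Apcdd1 to 1.06 for Tspan12, and retina minus brain was above 0 with a call for Lef1 and Tnfrsf19.

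The positive fractions were also compared directly between tissues, in a fit of the 9 positive libraries, with CPM scaled over all 18 libraries. Choroid positive was lower than brain positive in Apcdd1, Nkd1, Tnfrsf19, Lef1, Reck and Axin2 and higher in Tspan12 (1 higher and 6 lower of 9, with 46.8% of all genes called, 23.1% higher and 23.8% lower). Retina positive was lower than brain positive in 6 of 9 members and higher in none (0), with 63% of all genes called (32.1% higher and 31% lower), and for Tspan12 and Lrp5 the sign turned with scaling to pan-endothelial counts (0.15 and 0.068). Choroid positive was higher than retina positive in Tspan12 and Lrp5 and lower in 6 members, with 72% of all genes called (32.9% higher and 39.1% lower), and with that scaling Tspan12 was at -0.014 and Lrp5 at -0.68. The members' medians were -1.34, -0.97 and -0.78, beside 0.03, -0.01 and -0.11 over all genes. These 3 comparisons share their libraries. Endothelial RNA was not an equal share of the positive fractions: the pan-endothelial list had median log2 differences of 0.49, -1.33 and 2.18 in the same order, and its part in the members' differences was not tested beyond the scaling given below.

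Apcdd1 was the member whose level spanned the widest range. It averaged 9.08 ± 5.11 CPM in choroid positive, 65.7 ± 15.7 CPM in retina positive and 286 ± 64.5 CPM in brain positive (SD, n = 3 each). No library of a lower group reached the next group, and the log2 differences were -4.99 ± 0.35 for choroid over brain (SE, adjusted p = 1.65e-07), -2.94 ± 0.33 for choroid over retina (5.34e-06) and -2.05 ± 0.28 for retina over brain (4.78e-05). Nkd1 kept the same order, with 17.4 ± 7.45 CPM in choroid, 38.7 ± 5.38 CPM in retina and 159 ± 36.6 CPM in brain (SD), and it was called in all 3 comparisons. Tnfrsf19 did so as well, with 16.7 ± 3.49, 47.8 ± 20.2 and 119 ± 26.7 CPM. Notum, over the choroid and brain libraries only, averaged 5.29 ± 4.05 CPM in choroid positive and 33.5 ± 6.34 CPM in brain positive (SD), with a log2 difference of -2.77 ± 0.41 (SE, adjusted p = 0.000491).

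Lef1 averaged 40.1 ± 4.84 CPM in choroid positive, 61.8 ± 32.6 CPM in retina positive and 148 ± 26.7 CPM in brain positive (SD, n = 3 each). Brain stood above the others (-1.97 ± 0.31 for choroid over brain, SE, adjusted p = 0.00019; -1.19 ± 0.29 for retina over brain, 0.00318). Choroid and retina lay close. Their libraries overlapped, the difference was -0.78 ± 0.31 (adjusted p = 0.0358), and it was -0.25 (0.274) without retina positive 421, -0.70 (0.106) without choroid positive 953 and -0.75 (0.0887) without choroid positive 960. The call was also lost with DESeq2 size factors (-0.68, 0.0574) and in the fit of the 6 positive libraries of these tissues (-0.70, 0.0677). Axin2, the other general readout, averaged 33.8 ± 3.68, 51.6 ± 14.9 and 52.8 ± 11.2 CPM in choroid, retina and brain positive. It was lower in choroid than in brain, at -0.73 ± 0.23 (adjusted p = 0.0216), a call lost without choroid positive 953 (0.0663), choroid positive 960 (0.0674) or brain positive 953 (0.0911). It was lower in choroid than in retina as well (-0.77 ± 0.24, adjusted p = 0.0105, and 0.0515 without retina positive 421), and retina and brain did not differ by a call (0.04 ± 0.22, 95% interval -0.44 to 0.52).

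The receptor components did not share this order. Fzd4 averaged 37.3 ± 21.9 CPM in choroid, 52.3 ± 19.8 CPM in retina and 43.3 ± 14.4 CPM in brain positive (SD), the libraries of all 3 overlapped, and it was called in none of the comparisons (0), with 95% intervals of -1.11 to 0.58 for choroid over brain, -1.46 to 0.25 for choroid over retina and -0.47 to 1.15 for retina over brain. Without choroid positive 421 it was called lower in choroid than in retina (-1.22, adjusted p = 0.0142). Lrp5 averaged 177 ± 46.0 CPM in choroid, 81.4 ± 25.5 CPM in retina and 167 ± 22.9 CPM in brain, so choroid and brain lay together (adjusted p = 0.998, 95% interval -0.51 to 0.51) and retina was the lowest, except with scaling to pan-endothelial counts. Reck averaged 54.8 ± 29.2 CPM in choroid, 141 ± 35.6 CPM in retina and 133 ± 30.3 CPM in brain. It was lower in choroid than in brain (-1.34 ± 0.32, adjusted p = 0.00443) and retina (-1.50 ± 0.33, 0.00114), and retina and brain did not differ by a call (0.15 ± 0.31, 95% interval -0.52 to 0.82). Tspan12 was highest in choroid, with 98.1 ± 25.8 CPM, beside 27.1 ± 2.99 CPM in retina and 55.8 ± 9.88 CPM in brain. Its difference was 0.74 ± 0.21 from brain (adjusted p = 0.0115, and 0.0601 without brain positive 960) and 1.70 ± 0.22 from retina (1.60e-05, and -0.014 with scaling to pan-endothelial counts).

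When libraries were scaled to the summed counts of the pan-endothelial list instead, the median of all genes moved by -0.60 for choroid over brain, 1.08 for retina over brain and -1.69 for choroid over retina. Apcdd1 and Nkd1 remained lower in retina than in brain. In choroid 7 of 9 members were called lower than in brain, beside 3856 of all 10505 genes. Against retina 8 of 9 were called lower in choroid, beside 8177 of all 10505 genes, so most genes were lower there too. Tspan12 was no longer called in any of the 3 comparisons (0.14 for choroid over brain, 0.15 for retina over brain and -0.014 for choroid over retina), and Lrp5 turned lower in choroid than in retina (-0.68, adjusted p = 0.0306). Relative to endothelial counts, Fzd4 (1.38, adjusted p = 0.000545), Reck (1.21, 0.00133) and Axin2 (1.11, 0.00178) were higher in retina than in brain, beside a median of 1.07 over all genes, and Lef1 (-0.21, 0.518) and Tnfrsf19 (-0.25, 0.444) no longer differed by a call.

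**Figure D4:**
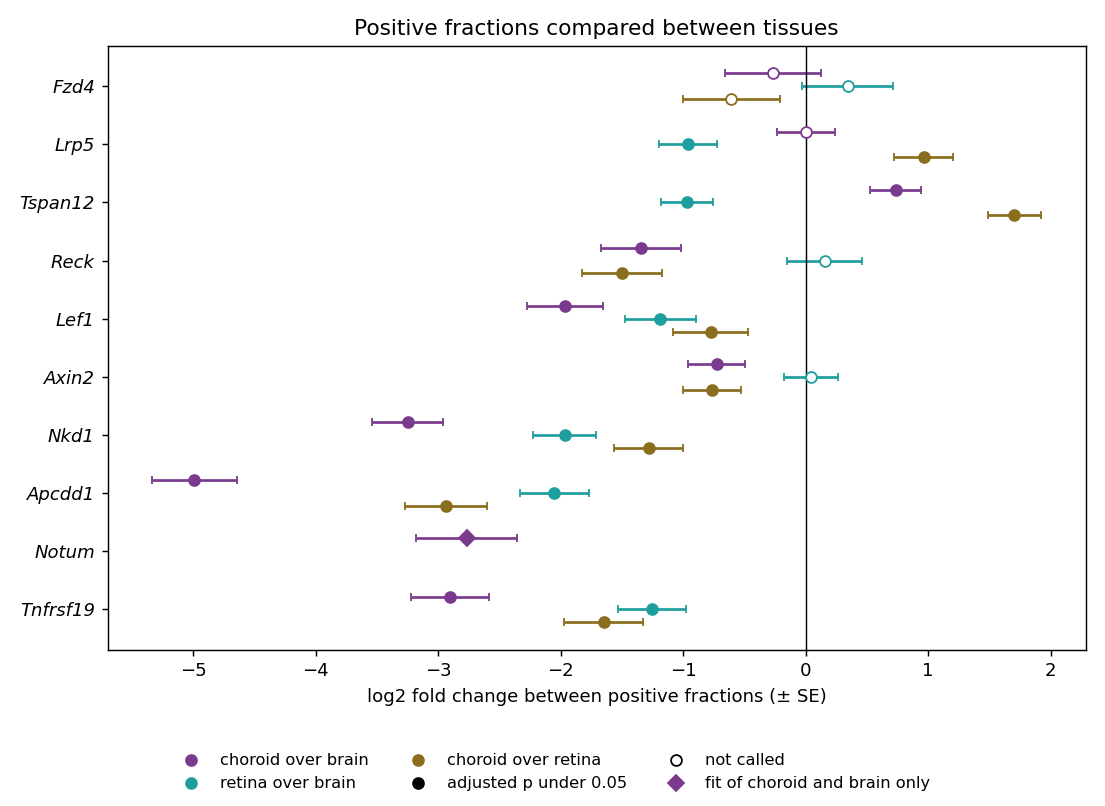
Log2 fold change between positive fractions of 2 tissues (x axis, with SE bars) for each member, with filled points for an adjusted p under 0.05 and a diamond for Notum from the fit of choroid and brain only. Apcdd1, Nkd1 and Tnfrsf19 lay below 0 in all 3 comparisons, and Tspan12 lay above 0 for choroid over brain and choroid over retina (at -0.014 for choroid over retina with scaling to pan-endothelial counts).

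Levels of different genes can be compared only per length, here as CPM per kilobase of exon (GENCODE M21, all exons of a gene joined). In choroid positive Tspan12 led with 26.0 ± 6.94 CPM per kb, followed by Lrp5 with 15.9 ± 4.17 and Reck with 10.1 ± 5.38, and Apcdd1 was last with 0.619 ± 0.349 (SD, n = 3). In retina positive Reck led with 29.1 ± 7.50 CPM per kb, and the other 8 lay between 5.02 ± 1.23 for Apcdd1 and 9.94 ± 4.24 for Tnfrsf19. Apcdd1 lay below Tspan12 (8.06 ± 0.829) and Nkd1 (8.37 ± 1.20) by more than their SDs. In brain positive Nkd1 led with 34.5 ± 8.33 CPM per kb, followed by Reck with 27.6 ± 6.46, Tnfrsf19 with 24.9 ± 5.78 and Apcdd1 with 22 ± 5.20, neighbours that did not differ beyond their SD. Fzd4 was last there with 6.37 ± 2.18 CPM per kb.

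Over all 18 libraries, the genes outside the set whose log2 CPM followed each member most closely were found by Pearson's r, as a description, since the points share their libraries and depth. Lef1 was followed most closely by Ly6c1 (r = 0.983), Itm2a (0.978) and Vwa1 (0.972), and Tnfrsf19 by Mfsd2a (0.98), the lipid transporter of barrier endothelium, Fnbp1l (0.956) and Fam107a (0.94). Reck was closest to Gpr124 (0.965), its partner in Wnt7 signalling, Eogt (0.943) and Slc2a1 (0.931), the glucose transporter of brain endothelium. Apcdd1 was closest to Aqp11 (0.925), P2ry1 (0.907) and Slc7a5 (0.895), an amino acid transporter. Lrp5 was closest to Lrrk1 (0.995), Tmem123 (0.99) and Itpripl2 (0.984), and Tspan12 to Cd200 (0.968), Klhl5 (0.964) and Crip2 (0.96). Fzd4 was closest to Furin (0.958), Nek9 (0.945) and Atp7a (0.917), Nkd1 to Clip1 (0.942), Extl3 (0.9) and Srgap2 (0.896), and Axin2, with the lowest values, to Unc119b (0.864), Hps4 (0.823) and Calcoco1 (0.818).

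The rest of the pathway was described with 7 lists, for positive over input. Their shares of called genes are to be read against the 42%, 31.7% and 39.5% called of all genes in choroid, retina and brain, and several lie near these. The listing rule holds for these lists as well, and a gene listed through 1 fraction was the likelier to be higher there. Through which fraction each of these genes was listed is not given here. Their counts, medians and leading genes are therefore a description. Wnt ligands and the genes of their secretion were mostly not higher in the positive fraction: 0 of 9 listed rose and 3 fell in choroid, 3 of 7 rose and 1 fell in retina, and 1 of 16 rose and 10 fell in brain. In choroid Wls (-1.23), needed to secrete Wnt proteins, Wnt16 (-1.52) and Wnt5a (-1.63) fell, and Wnt4 was not called (-1.20). In retina Wls (1.32), Wnt4 (0.96) and Wnt5b (1.38) rose, and Porcn was not called (-0.12). In brain Rspo2 (-1.76), Wnt6 (-2.0) and Ndp (-1.42), which encodes norrin, fell, and Wls was not called (adjusted p = 0.98). Extracellular and membrane inhibitors were lower for the larger part in choroid (0 higher and 8 lower of 12, led by Sostdc1 at -2.57, Sfrp1 at -1.99 and Sfrp5 at -1.68, with Kremen1 not called at -0.30). In retina 1 was higher and 2 lower of 8: Dkk2 had 4.64, Frzb had -0.86 and Dkk3 -0.97, and Kremen1 was not called (0.07). In brain 2 were higher and 5 lower of 9, with Sostdc1 at -2.38, Sfrp5 at -1.54 and Kremen1 at 0.76, and Znrf3 was not called (-0.03). The list medians were -1.32 in choroid, -0.14 in retina and -0.88 in brain.

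Other receptors and co-receptors split by gene. In choroid 1 rose and 8 fell of 13, with Fzd7 (-1.18), Lgr4 (-1.41) and Fzd1 (-1.04) lower and Lrp6 not called (-0.33). In retina 3 rose and 4 fell of 13, with Fzd6 (3.77) higher, Fzd10 (-2.03) and Fzd5 (-1.01) lower and Lrp6 not called (-0.15). In brain 5 rose and 6 fell of 14, with Fzd6 (3.91) and the Reck partner Gpr124 (3.70) higher, Fzd2 (-1.23) lower and Ryk not called (0.29). Their medians were -1.04 in choroid, -0.19 in retina and -0.42 in brain. Dishevelled and destruction complex genes had medians near 0 in choroid (-0.22, 2 higher and 3 lower of 17), retina (-0.04, 2 higher and 4 lower of 16) and brain (-0.14, 3 higher and 1 lower of 17). Their named genes were Csnk1e (1.32), Dvl3 (-1.99), Btrc (-0.77) and Tnks2 (0.27, not called) in choroid. They were Gsk3b (-0.59), Apc2 (-0.47), Dvl1 (1.01) and Btrc (0.05, not called) in retina, and Nkd2 (1.78), Btrc (-0.60), Csnk1d (0.44) and Apc (-0.28, not called) in brain.

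Beta-catenin itself, Ctnnb1, rose in retina (0.73) and brain (1.06). So did Tcf7 (3.44 in retina and 3.84 in brain) and Tcf7l1 (0.85 in retina and 1.70 in brain), both of the TCF family, while Aes was not called (-0.13 in retina and -0.07 in brain). In choroid Tle3 (0.83) rose, Tle4 (-0.85) and Pygo1 (-2.40) fell and Chd8 was not called (0.19). Of the list of 16 genes, beta-catenin included, 3 rose and 5 fell in choroid (median 0.06), 4 rose and 1 fell in retina (median 0.07), and 5 rose and 1 fell in brain (median 0.05). Of the other Wnt target genes, 0 of 12 rose and 4 fell in choroid (median -0.34), led by Bmp4 (-1.42), Lgr5 (-2.15) and Rnf43 (-1.30), with Id2 not called (0.03). In retina 4 of 10 rose and 0 fell (median 0.10), led by Dkk2 (4.64), Tcf7 (3.44) and Ppard (0.45), with Jag1 not called (0.06). In brain 8 of 13 rose and 3 fell (median 1.39), led by Jag1 (2.41), Ccnd1 (1.27) and Ppard (2.04), with Znrf3 not called (-0.03).

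A list of endothelial genes known to respond to Wnt signalling holds genes of barrier vessels and also Plvap, a gene of fenestrated vessels. Plvap counts among those that rose in choroid and is the gene not called in retina and brain. The genes of this list split in choroid, where 6 rose and 5 fell of 12 (median 1.22). They rose in 12 of 13 in both retina (median 4.82) and brain (median 4.70), which by the listing rule is a description of the listed genes. The leading genes in choroid were Cldn5 (4.34), Plvap (3.77) and Sox17 (3.14), and Slc7a1 was not called (0.57). They were Cldn5 (6.74), Foxf2 (6.37) and Foxq1 (5.98) in retina, and Foxf2 (5.55), Slc2a1 (4.48) and Sox17 (5.36) in brain. Plvap, the diaphragm protein of fenestrated vessels, averaged 3759.7 ± 723 CPM in choroid positive and 276 ± 65.0 CPM in choroid input (SD, n = 3 each). It was not called in retina (19.3 ± 3.80 CPM in the positive fraction and 15.4 ± 2.68 CPM in the input) or brain (37.2 ± 10.9 CPM in the positive fraction and 30.5 ± 3.49 CPM in the input), where the log2 fold changes were 0.32 and 0.29. The endothelial genes Pecam1 and Cdh5 had log2 fold changes of 3.88 and 2.85 in choroid, 6.16 and 6.98 in retina, and 5.85 and 5.38 in brain.

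In choroid, pigment epithelium markers summed to 3392 to 7312 CPM in the positive fraction and 13231 to 20866 CPM in the input, with Rpe65 at -2.21, and fibroblast markers to 634 to 1061 CPM in the positive fraction and 1884 to 2553 CPM in the input, with Col1a2 at -1.56. Their part in the lower values of Fzd4, Axin2 and Tnfrsf19 in choroid positive was not tested. In brain, oligodendrocyte markers summed to 1002 to 2397 CPM in the positive fraction and 5067 to 5426 CPM in the input, with Mbp at -1.63, and astrocyte markers to 3547 to 4471 CPM in the positive fraction and 4161 to 5798 CPM in the input, with Gfap at -0.75. Gfap in choroid (-1.38) and retina (0.30), Mbp in choroid (-1.77) and retina (-0.39), and Rgs5, of pericytes, in choroid (-2.12) and brain (-0.51) were not called, and Rgs5 rose in retina (3.56). The 4 mural cell markers listed in retina summed to 679 to 1151 CPM in the positive fraction and 899 to 967 CPM in the input, which overlapped. Rpe65 fell in retina (-1.52) and Col1a2 in brain (-1.60).

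**Figure D5:**
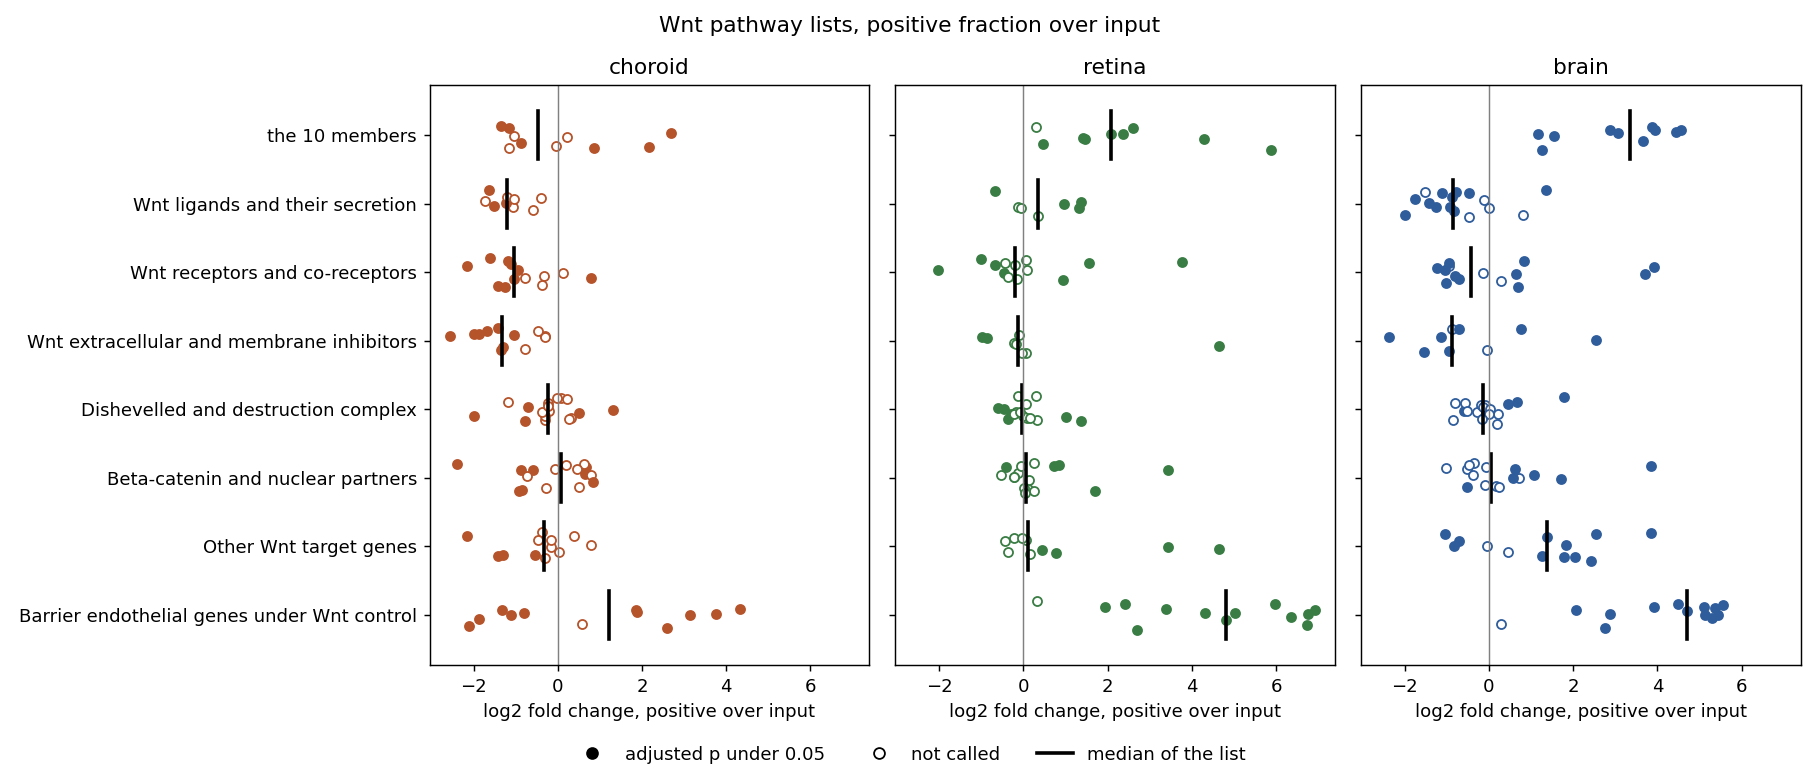
Log2 fold change of the positive fraction over the input (x axis) for each listed gene of the 10 members and of 7 wider lists (y axis), in choroid, retina and brain, with filled points for an adjusted p under 0.05 and black bars for list medians. The list of barrier endothelial genes, which also holds Plvap of fenestrated vessels, had medians of 1.22, 4.82 and 4.70. The ligand list had -1.20, 0.35 and -0.86. A gene listed through 1 fraction was the likelier to be higher there, so these medians are a description.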

How the data were processed

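RNA-seq was made from input and pull-down fractions of 3 tissues, per the labels. The authors deposited raw expected counts per gene, of which 72.0% in choroid, 91.5% in retina and 90.2% in brain were not whole (tolerance 0.001). The count models used them after rounding. The authors' deposited normalized columns are log2 values and served only as a check. The submitters' processing notes name DESeq and mm10. Which aligner and counter were used is not given in the sources used here. Depth covers listed genes only, because a gene had to reach the minimum named in the header.

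Enrichment in each tissue was tested with edgeR's quasi-likelihood F test (edgeR 4.0.16, R 4.3.3) after TMM scaling, with 4 residual degrees of freedom among libraries; filterByExpr removed no member. Differences in enrichment came from 1 fit over the 18 libraries (12 degrees of freedom), and differences between positive fractions from the 9 positive libraries (6). P-values were adjusted by Benjamini-Hochberg over all genes of a fit. The SE is the size of the log2 fold change divided by the root of F. The fits were tested on simulated data.

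Within a tissue, both fractions of a number come from the same lysate, per the labels' protocols and titles, so numbers pair them. The deviations of these pairs had correlations from 0.268 to 0.632 (choroid), from 0.008 to 0.087 (retina) and from 0.034 to 0.189 (brain). Blocked values are printed where a call changes. What a number stands for across tissues is not stated. Alternatives were other scalings and filters, DESeq2 1.42.0, the block, fits of fewer or more libraries and each library left out. Fits of choroid and brain only, and without both fractions of choroid 421 or brain 960, were added after seeing the data. The members, lists and tests were chosen with earlier results of these data known. Named genes are all members, from each wider list up to 3 called genes with the smallest adjusted p and 1 gene not called with the highest mean CPM for positive over input, 8 marker genes, and the 3 most alike genes per member.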

Additional observations from a re-analysis of the deposited data

Results flagged for a closer look

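Members whose enrichment differed between tissues by the test of the difference are given here as log2 differences. For choroid minus brain these were Reck (-3.73), Tspan12 (1.06), Fzd4 (-4.20), Nkd1 (-2.48), Axin2 (-1.87), Tnfrsf19 (-2.53), Apcdd1 (-5.51) and Lrp5 (-2.62), and Notum (-5.28) in the fit of choroid and brain only. For retina minus brain they were Lef1 (2.08), Nkd1 (-2.27), Tnfrsf19 (2.89) and Apcdd1 (-2.32). For choroid minus retina they were Lef1 (-3.16), Reck (-2.61), Fzd4 (-2.72), Axin2 (-1.14), Tnfrsf19 (-5.42), Apcdd1 (-3.19) and Lrp5 (-1.49). The listing rule favours the negative sign for Apcdd1, Fzd4, Notum, Tnfrsf19 and Nkd1 in choroid minus brain. In choroid minus retina it favours that sign for Tnfrsf19, Apcdd1 and Fzd4. In retina minus brain it favours the positive sign for Lef1 and Tnfrsf19 and the negative sign for Apcdd1. All of these values are a description. Groups of 3 libraries were not searched for single outlying values.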

How the results depend on the processing

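Of 83 member values, 50 kept their direction and call under all alternatives run, and 33 changed under at least 1. The values that reversed did so with scaling to pan-endothelial counts: Tspan12 (0.15) and Lrp5 (0.068) for retina over brain positive, and Tspan12 (-0.014) and Lrp5 (-0.68) for choroid over retina positive. The count of members called for retina minus brain enrichment was 4, and 7 with the replicate block, for which the share of all genes called is not given here. With 1 library left out, choroid had 4 to 6 members called, retina 7 to 8 and brain 10 to 10. The range was 7 to 9 for choroid minus brain, 3 to 5 for retina minus brain and 6 to 8 for choroid minus retina. For the positive fractions it gave 6 to 7 for choroid over brain, 6 to 6 for retina over brain and 6 to 9 for choroid over retina. Where a group was left with 2 libraries, its spread was pooled with the others. Across tissues same-numbered positive libraries correlated in their deviations at -0.08 to 0.164. Fractions of the same lysate had values as low, at 0.008 to 0.087 in retina and 0.034 to 0.189 in brain. Such values therefore cannot decide whether the number pairs the tissues. The main fits did not pair them. A replicate block in the fits of positive libraries changed only Fzd4 for choroid over retina (-0.69, adjusted p = 0.016).

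Counts over all genes moved more. With library size as the only scaling, the genes called higher and lower were 1756 and 3340 in choroid (2471 and 2451 with TMM), 547 and 2196 for choroid minus brain (1286 and 1296), 631 and 574 for retina minus brain (875 and 522), 580 and 2683 for choroid minus retina (1141 and 1887) and 1711 and 3086 for choroid over brain positive (2424 and 2495). With scaling to pan-endothelial counts they were 556 and 3856 for choroid over brain, 6629 and 356 for retina over brain (3367 and 3254 with TMM) and 463 and 8177 for choroid over retina (3461 and 4105). Without brain input 960 they were 4670 and 4642 in brain (2744 and 2359 with it), and 4758 and 4860 without both fractions of 960. Leaving out any 1 library gave as few as 1609 higher in choroid (without input 953), 1292 to 3095 higher and 586 to 2653 lower in retina (2226 and 1696 with all), and as few as 1005 lower in brain (without positive 421). It gave 622 to 1402 higher and 1093 to 2077 lower for choroid minus brain, and 429 to 1047 higher and 319 to 1571 lower for retina minus brain (1501 and 818 without both fractions of brain 960). Without both fractions of choroid 421, 812 were higher for choroid minus brain. A fit of all 18 libraries gave 1443 higher and 676 lower in retina. Depth limits low choroid values: Notum had 8.0 to 31.0 raw counts there in the positive fraction.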

Other observations

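Over the 18 libraries, pairs of members followed each other to unequal degrees in log2 CPM, given as a description over libraries that share tissue and fraction. Apcdd1 and Nkd1 had r = 0.893, Fzd4 and Axin2 0.863, Fzd4 and Reck 0.817, Lrp5 and Reck 0.815, and Lef1 and Tspan12 0.786. Fzd4 and its helper Tspan12 had 0.177, Lef1 and Axin2 0.091, and Tspan12 and Axin2 -0.139.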
